A study of Mus musculus with 8 samples.

Results

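Mouse genes carrying a plain Gpr name are the subject here: 92 genes whose array name is Gpr, a number and at most 1 letter, with Gpr119 and Gpr142 left out. They were found among the 36161 gene names of an Agilent whole-genome array by their names alone, through 108 array probes, and each gene is represented by the probe with the highest mean log2 processed intensity over all 8 arrays. RNA of the small intestine at stage E18.5, shortly before birth, was compared between 4 control and 4 mutant mice. Control replicates 1, 3 and 4 carried the genotype Rfx6 fl/+ and control replicate 2 the genotype Rfx6 fl/fl, and Ngn3-cre is named for the mutants only. All 4 mutants were Rfx6 fl/fl Ngn3-cre, so both alleles of the transcription factor gene Rfx6 were open to deletion in cells that had switched on Ngn3, a gene of endocrine progenitors. The question behind the contrast is what the gut transcriptome loses when the endocrine lineage lacks Rfx6. The contrast cannot separate an effect of Cre from one of the deletion. The RNA came from small intestine tissue, of which endocrine cells are a small share.

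G protein-coupled receptors span the membrane with a bundle of helices and pass a signal from outside the cell to G proteins inside it. Genes were given Gpr numbers when a sequence looked like such a receptor and no ligand was known. Some have since been matched to fatty acids, protons, lipids or chemokines, others belong to the adhesion family with long extracellular domains, and several encode membrane proteins outside the receptor families. In the gut, receptors of this kind are known from nutrient-sensing endocrine cells, absorptive epithelium, blood vessels, nerves and immune cells. Through the accession of its probe, 87 of the 92 genes matched RefSeq (GRCm38.p6), and 22 of those now have another symbol, such as Ffar4 for Gpr120.

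The measurement of each gene rests on a probe of 60 bases. The first 30 bases of 6 of them, 5′ to 3′ as the array files list them, are shown for the 4 genes with an unadjusted p under 0.05 and for both probes of Gpr125, which lie in different parts of that gene. Positions are on mm9, and exon and UTR annotation of that build was not used here.
Gpr120 probe: acaacatgtcgctgttcaggaacgaatgga
Gpr116 probe: atatcagtgtattagtgatgctgtctttcc
Gpr135 probe: gaagaagggtacaggactagaaacatggat
Gpr50 probe: gtcgtgcttattgatgatgattctgatgat
Gpr125 probe, brighter: actcacattcctttaagctatgaactctta
Gpr125 probe, dimmer: tcatgttcagacgaaacgtgggaataacac
These lie at chr19:38188370-38188429 (plus strand, Gpr120), chr17:43596447-43596506 (plus, Gpr116), chr12:73170824-73170883 (minus, Gpr135), chrX:68921205-68921264 (plus, Gpr50), chr5:50351414-50351473 (minus, brighter Gpr125) and chr5:50393148-50393207 (minus, dimmer Gpr125).

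Levels below are log2 processed intensity minus the log2 of the array's 75th percentile, so 0 is that percentile and each step of 1 is a factor of 2. A probe was well above background on an array by the scanner software's own call. The 75th percentile lay between 788 and 1027 intensity units, and 59.7% to 69.9% of all probes were well above background per array. Epithelial markers (Epcam, Cdh1, Vil1, Cdx2 and 4 others) were well above background on all 8 arrays. Of 12 endocrine markers, 9 were lower in the mutants at a limma adjusted p under 0.05. Among them were Sct (-0.997, SE 0.11, limma adjusted p = 0.0291) and Ghrl (-4.86, SE 0.17, limma adjusted p = 4.8e-06), both well above background on all 8 arrays. In whole-tissue RNA, fewer cells of a type and less RNA per cell cannot be told apart. Pancreatic acinar markers, which mark tissue next to the gut, summed to 0.825 to 2.11 times the 75th percentile in controls and 2.64 to 14.3 in mutants. Of 5 tested genes 0 passed, but 4 had an unadjusted limma p under 0.05, where 5.33% of all genes did. Groups did not overlap for Amy2a5 (6.09, SE 1.00, limma adjusted p = 0.15) and Cela2a (3.95, SE 0.60, limma adjusted p = 0.11), both higher in mutants. The part of the acinar markers in the values below was not tested. The Rfx6 probe averaged -3.23 in controls (SD 0.23, n = 4) and -3.73 in mutants (SD 1.2, n = 4), with a limma adjusted p of 0.824, so it does not separate the labelled groups. Mutant replicate 1 alone was low (-5.52), and the other 3 mutants, at -3.37 to -3.02, lay within the control range of -3.48 to -2.93. The labels' descriptions of mutant replicates 2 to 4 name other Rfx genes, while their titles name Rfx6. Mutant replicate 1 stood apart from the other arrays, with a mean correlation across genes of 0.978 against 0.990 to 0.991 for the other 7.

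Of the 92 genes, 57 were well above background on all 8 arrays and 15 on none. A further 7 were so on 4 to 7 arrays and 13 on 1 to 3. The comparison was made for the 64 genes that were well above background on at least 4 arrays, counted without regard to group, which is 69.6% of the Gpr-named genes against 70.1% of all gene names on the array. Between 59 and 72 of the 92 were well above background on any single array, 59 on mutant replicate 3 and 72 on control replicate 1. For 78 genes the number of such arrays was equal in the groups, for 10 it was higher in controls and for 4 higher in mutants. For 0 of the 92 was the probe well above background on all 4 arrays of one group and on at most 1 of the other.

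**Figure D1:**
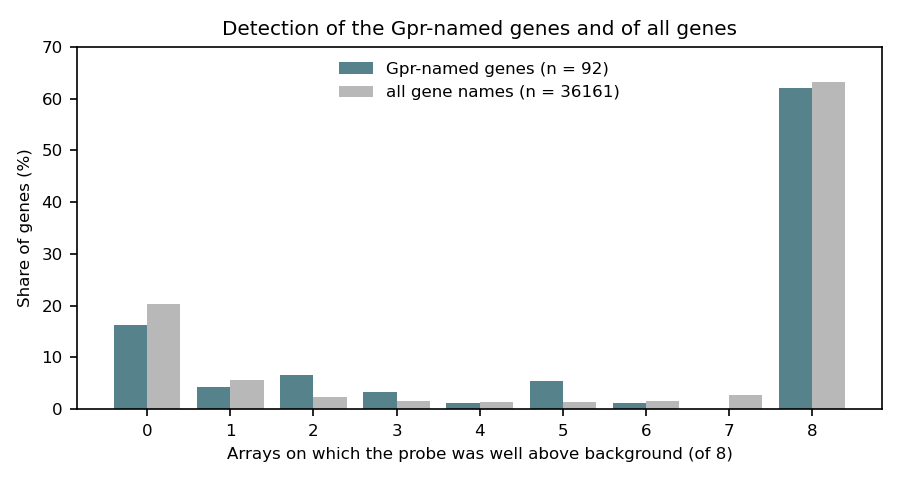
Number of arrays (x axis, 0 to 8) on which a gene's probe was well above background, as a share of genes (y axis, %), for the 92 Gpr-named genes and for all 36161 gene names. Both sets pile up at the ends: 62.0% of Gpr-named genes and 63.3% of all genes at 8 arrays, 16.3% and 20.3% at 0.

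The 15 genes at 0 arrays included Gpr12, Gpr33, Gpr63, Gpr83, Gpr111, Gpr115, Gpr141, Gpr143, Gpr149, Gpr152, Gpr158, Gpr165, Gpr173 and Gpr174. Gpr12 encodes a receptor with high cAMP signalling in the absence of ligand, and Gpr143 encodes a pigment-cell protein of melanosomes. The 13 genes at 1 to 3 arrays were Gpr15, Gpr18, Gpr22, Gpr37, Gpr44, Gpr52, Gpr55, Gpr75, Gpr81, Gpr84, Gpr101, Gpr123 and Gpr139. Gpr15, a homing receptor of lymphocytes, and Gpr44, the prostaglandin D receptor now called Ptgdr2, were each well above background on 2 control arrays and 0 mutant arrays. Gpr15 averaged -5.58 in controls and -5.72 in mutants, and Gpr44 -6.00 and -7.05. For both genes the levels of the groups overlapped. The Gpr75 probe was at -3.59 on mutant replicate 2 and between -8.00 and -7.34 on the other 7 arrays, a pattern singled out after its values were seen. The genes at 0 to 3 arrays were left out of the comparison. With no filter on dim probes 0 of the 92 passed limma at an adjusted p of 0.05, where 14 of all 36161 genes did.

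No Gpr-named gene passed the test between mutants and controls. By limma with Benjamini-Hochberg adjustment over all 25354 genes tested, 0 of 64 passed an adjusted p of 0.05, where 0.0592% of all genes did (15 of 25354) and 0.0552% did so with a lower level in mutants. The lowest adjusted p among the 64 was 0.821. At an unadjusted limma p under 0.05 there were 4 of the 64 (Gpr120, Gpr116, Gpr135 and Gpr50), all lower in mutants, where 5.33% of all genes were below that value, 2.15% lower and 3.18% higher. Groups did not overlap for 0 of the 64, where they did not overlap for 4.67% of all genes. Differences were positive for 35 genes and negative for 29, from -0.84 (Gpr82) to 0.75 (Gpr1), with a median of 0.029 beside 0.0305 for all genes. The limma 95% interval of the difference, taken gene by gene, lay within a 2-fold change in either direction for 56 of the 64 genes, and within a 1.5-fold change for 40. For the other 8, among them Gpr1, Gpr64, Gpr82, Gpr135 and Gpr151, the interval reached past 2-fold on at least 1 side.

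**Figure D2:**
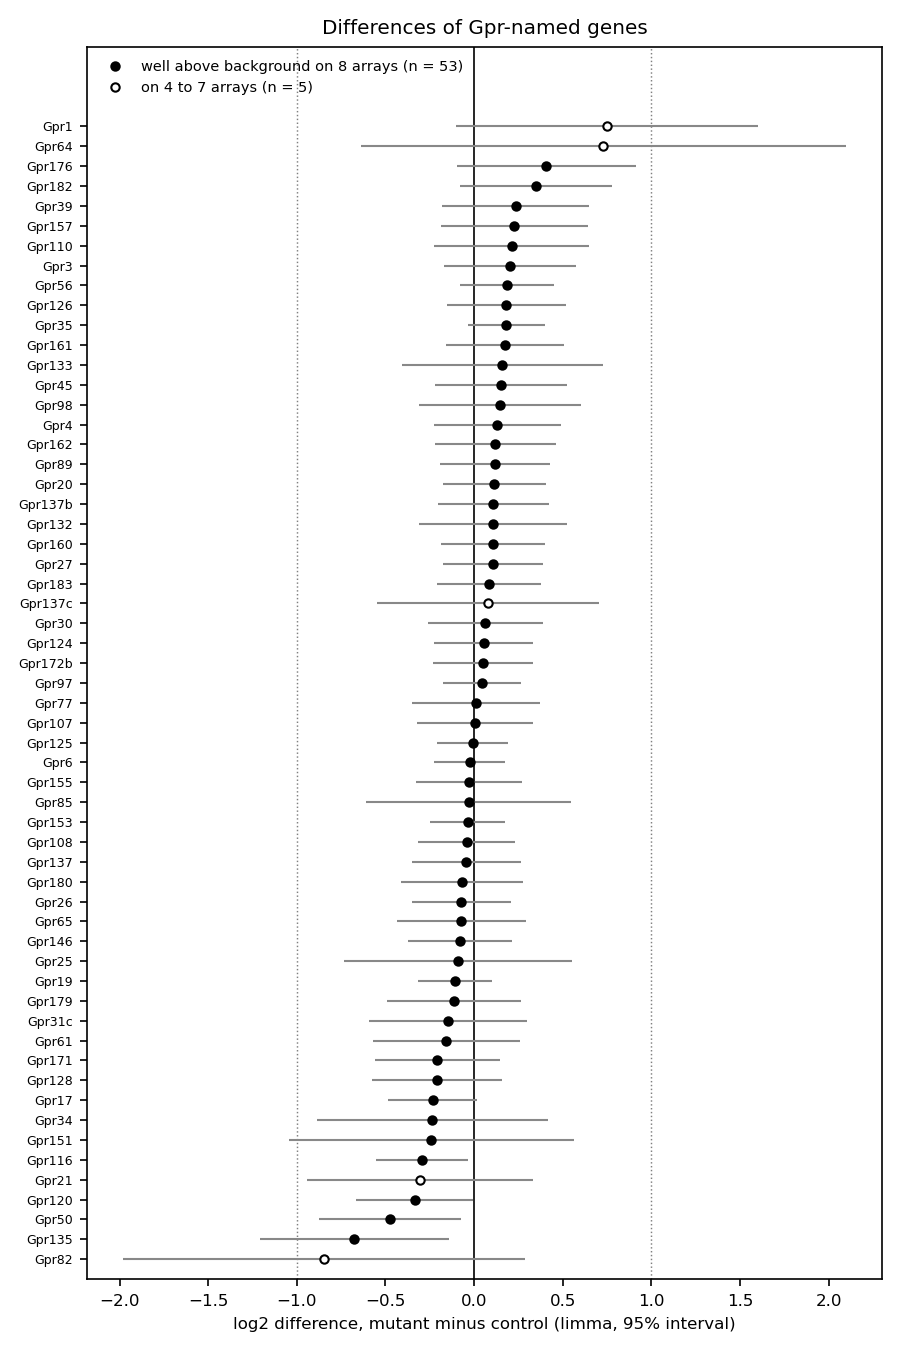
Log2 difference of mutant minus control (x axis) for the tested Gpr-named genes reported by name (rows), with limma 95% intervals; filled points were well above background on all 8 arrays and open points on 4 to 7, and dotted lines mark 2-fold. The points run from -0.84 for Gpr82 to 0.75 for Gpr1, and open points such as Gpr64 have wide intervals.

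Among 14 genes of receptors for lipids and metabolites, 7 were tested, 3 higher and 4 lower, with a median difference of -0.15 and 0 passing. Gpr120 encodes the long-chain fatty acid receptor FFAR4, known from gut endocrine cells. It stood at -3.12, -3.0, -3.19 and -2.78 in control replicates 1 to 4 and at -3.11, -3.57, -3.55 and -3.20 in the mutants. Mutant replicate 1 lay among the controls, mutant replicate 4 lay barely below the lowest control, and the other mutants lay further below. The difference was -0.34 (SE 0.14, limma 95% interval -0.66 to -0.0059, unadjusted p = 0.0468, adjusted p = 0.821). Without mutant replicate 1 it was -0.42 (SE 0.13) and the groups did not overlap, with a limma adjusted p of 0.6415. Groups did not overlap for 8% of all genes in that run. Leaving out any other array gave -0.39 (control replicate 3) to -0.25 (control replicate 4), with overlapping groups. Endocrine markers, summed over the 12 genes, were at 178.4 to 188.1 times the 75th percentile in controls and 81.6 to 100.2 in mutants. That sum includes Chga, Scg3 and Chgb, which did not pass. It is weighted towards Sct, the brightest of the 12 in controls (mean 6.42), which differed by -0.997. The median log2 difference over the 12 was -2.03. The part of the endocrine markers in the Gpr120 values was not tested.

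Gpr35, a receptor of the gut epithelium that responds to kynurenic acid, was at -1.38, -1.47, -1.67 and -1.53 in controls and at -1.26, -1.40, -1.40 and -1.26 in mutants. The 2 highest values were mutant ones, and the groups overlapped at control replicate 1. Its difference was 0.18 (SE 0.096, limma adjusted p = 0.821). Gpr17, known from oligodendrocyte precursors, was at 0.80 to 1.1 in controls and 0.52 to 0.83 in mutants, with a difference of -0.23 (SE 0.11). Gpr183, a receptor for oxysterols on lymphocytes, differed by 0.085 (SE 0.13), and Gpr30, the membrane oestrogen receptor Gper1, by 0.064 (SE 0.14). Gpr34, a lysophosphatidylserine receptor of macrophages, differed by -0.24 (SE 0.29) with mutant replicate 1 at -5.29 and the other 7 arrays at -4.63 to -3.96. Gpr31c was the remaining gene with a negative difference (-0.15, SE 0.20).

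The adhesion family gave 16 genes, of which 13 were tested, 10 higher and 3 lower, with a median of 0.15 and 0 passing. Gpr116 (Adgrf5), known for control of lung surfactant and for expression in blood vessels, was at -0.012, 0.012, -0.058 and -0.31 in controls and at -0.59, -0.33, -0.38 and -0.24 in mutants. The groups overlapped only through control replicate 4, which lay below mutant replicate 4. Its difference was -0.29 (SE 0.11, limma 95% interval -0.55 to -0.032, adjusted p = 0.821). Endothelial markers had a median difference of 0.13 over 8 genes, and their summed level was 13.7 to 14.3 in controls and 14.1 to 18.8 in mutants, and their part in the Gpr116 values was not tested.

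Gpr128 (Adgrg7), an adhesion receptor known from intestinal epithelium, was at 2.19, 2.26, 2.30 and 2.18 in controls and at 1.53, 2.26, 2.07 and 2.23 in mutants. Mutant replicate 1 was the lowest array, and the difference was -0.21 (SE 0.16). Gpr56 (Adgrg1) was at 1.39 to 1.62 in controls and 1.47 to 1.91 in mutants, a difference of 0.19 (SE 0.12). Gpr124 (Adgra2), a Wnt co-receptor of brain vessels, differed by 0.053 (SE 0.12), and Gpr126 (Adgrg6), which is needed for myelination by Schwann cells, by 0.18 (SE 0.15). The largest adhesion difference, 0.73 (SE 0.60) for Gpr64 (Adgrg2), came from a probe well above background on 2 control and 3 mutant arrays. Gpr64 stood at -4.92, -5.52, -8.14 and -5.67 in controls and at -5.29, -5.19, -5.47 and -5.37 in mutants. Control replicate 3 alone was far below the rest, and without it the difference was 0.037 (SE 0.19), whereas without control replicate 1 it was 1.11 (SE 0.59).

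All 4 genes of proton-sensing receptors were well above background on all 8 arrays, and 0 passed. Gpr4 differed by 0.13 (SE 0.16), Gpr65 by -0.072 (SE 0.16) and Gpr132 by 0.11 (SE 0.18). Gpr65, which is known from immune cells, lay at -1.97 in mutant replicate 1 and at -1.52 to -1.28 on the other 7 arrays. Immune markers had a median difference of 0.050 over 8 genes, with 0 passing. Of the receptors with high ligand-independent cAMP signalling, Gpr3 differed by 0.20 (SE 0.16) and Gpr6 by -0.025 (SE 0.0875), and Gpr12 was not tested. Of the class C receptors, Gpr179 differed by -0.11 (SE 0.17), and Gpr158 was not tested.

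The 9 genes that encode membrane proteins outside the receptor families were all tested, and 0 passed. Their differences ran from -0.067 to 0.12, 5 higher and 4 lower, with a median of 0.0035. For 8 of the 9 the limma 95% interval lay within a 1.5-fold change, and for all 9 within a 2-fold change. Gpr172b (Slc52a2), a riboflavin transporter, was at 3.10, 3.07, 3.13 and 2.97 in controls and at 3.42, 2.94, 3.16 and 2.94 in mutants, a difference of 0.049 (SE 0.12). The mutant values surrounded the control ones. Gpr107, Gpr108 and Gpr89, which encode proteins of the Golgi, differed by 0.0035 (SE 0.14), -0.041 (SE 0.12) and 0.12 (SE 0.14). Gpr137, Gpr137b and Gpr137c, which encode related proteins, differed by -0.043, 0.11 and 0.079, and Gpr155 and Gpr180 by -0.030 and -0.067.

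The remaining 43 genes are other receptors of the rhodopsin-like class or genes not placed in a family, and 27 of them were tested, 12 higher and 15 lower, with a median of -0.036 and 0 passing. Gpr135, an orphan receptor, was at -4.19, -4.07, -3.19 and -3.47 in controls and at -4.41, -4.15, -4.71 and -4.35 in mutants. Control replicate 1 lay just below mutant replicate 2, and the other 3 controls lay above all mutants. The difference was -0.68 (SE 0.23, limma 95% interval -1.21 to -0.14, unadjusted p = 0.0187, adjusted p = 0.821). Gpr50, a relative of the melatonin receptors that does not bind melatonin, was at -3.28, -3.78, -3.42 and -3.12 in controls and at -3.69, -3.65, -4.21 and -3.95 in mutants. Only control replicate 2 fell within the mutant range. The difference was -0.48 (SE 0.18, limma 95% interval -0.88 to -0.076, adjusted p = 0.821). It was -0.60 without control replicate 2 (limma adjusted p = 0.905), -0.38 without control replicate 4 and -0.36 without mutant replicate 3.

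Gpr1, a receptor for chemerin, had the largest positive difference, 0.75 (SE 0.37, limma adjusted p = 0.821), with its probe well above background on 2 control and 3 mutant arrays. Its levels were -5.89, -5.81, -7.35 and -5.56 in controls and -5.54, -4.92, -5.70 and -5.44 in mutants. Control replicate 3 was again the lowest array, and without it the difference was 0.35 (SE 0.1955). Gpr176, an orphan receptor known from the circadian clock, was at -3.36, -3.85, -4.44 and -4.04 in controls and at -3.25, -3.55, -3.46 and -3.79 in mutants, a difference of 0.41 (SE 0.22) that was 0.24 (SE 0.19) without control replicate 3. Gpr182, known from blood vessel endothelium, was at -0.59, -1.06, -1.08 and -0.81 in controls and at -0.20, -0.31, -0.70 and -0.94 in mutants, a difference of 0.35 (SE 0.19). In both genes the ranges of the groups overlapped, through control replicate 1 for Gpr176 and through mutant replicates 3 and 4 for Gpr182.

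Gpr82 had the largest negative difference, -0.84 (SE 0.50, limma adjusted p = 0.821), and was well above background on 3 control and 2 mutant arrays. It stood at -6.06, -5.33, -5.29 and -5.28 in controls and at -7.91, -5.76, -6.30 and -5.37 in mutants. Mutant replicate 1 was lowest, and without it the difference was -0.32 (SE 0.27). Gpr39, a zinc-activated receptor, differed by 0.23 (SE 0.18), and Gpr77, the complement receptor C5ar2, by 0.0099 (SE 0.16).

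**Figure D3:**
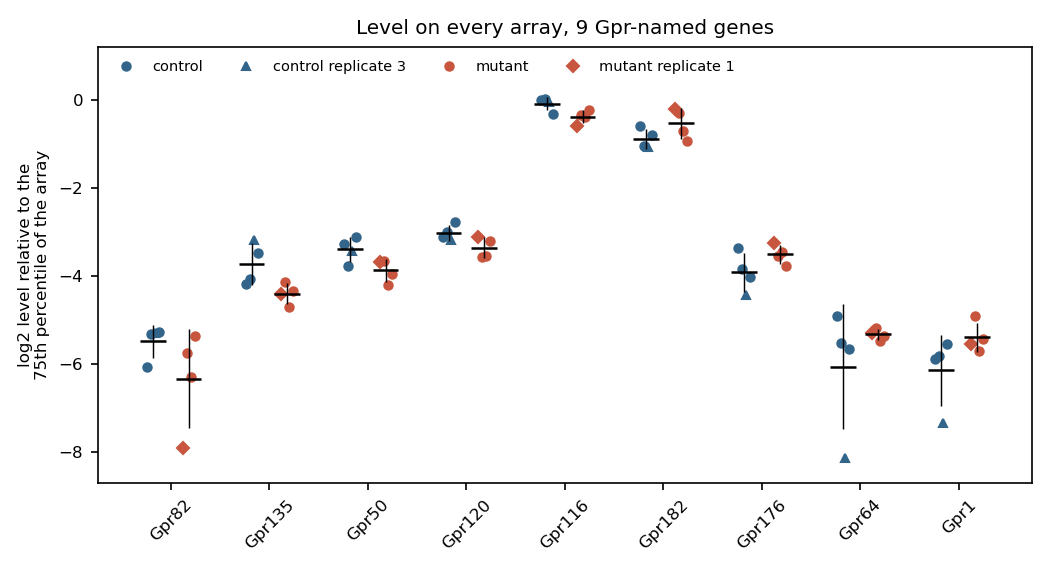
Level on every array (y axis, log2 units above or below that array's 75th percentile) for 9 Gpr-named genes with large differences or an unadjusted limma p under 0.05. Horizontal lines are group means and vertical lines SDs (n = 4); the triangle for control replicate 3 sits far below for Gpr64 and Gpr1, and the diamond for mutant replicate 1 is lowest for Gpr82.

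Replicate spread varied widely among the genes. The within-group SD of the 64 genes had a median of 0.24, beside 0.195 for all genes, with 0.081 for Gpr125 and 1.01 for Gpr64. It was under 0.25 for 38 of them. The 7 genes well above background on 4 to 7 arrays had a median SE of 0.40 for their difference, against 0.15 for the 57 on all 8. Measured as the deviation from the mean of the other 3 arrays of the group, control replicate 3 was the most divergent array for the Gpr-named genes (SD 0.59, n = 64) and not for all genes (0.32, n = 25354). It lay more than 2-fold below its group for 7 of the 64 genes, among them Gpr1, Gpr64, Gpr85 and Gpr137c, and for 259 of all 25354. Of the 7, 2 were well above background on all 8 arrays, Gpr85 being one. Mutant replicate 1 had an SD of 0.55 for the Gpr-named genes and 0.67 for all genes. It lay more than 2-fold below its group for 4 of the 64 Gpr-named genes, among them Gpr21, Gpr34 and Gpr82, and for 2057 of all 25354.

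**Figure D4:**
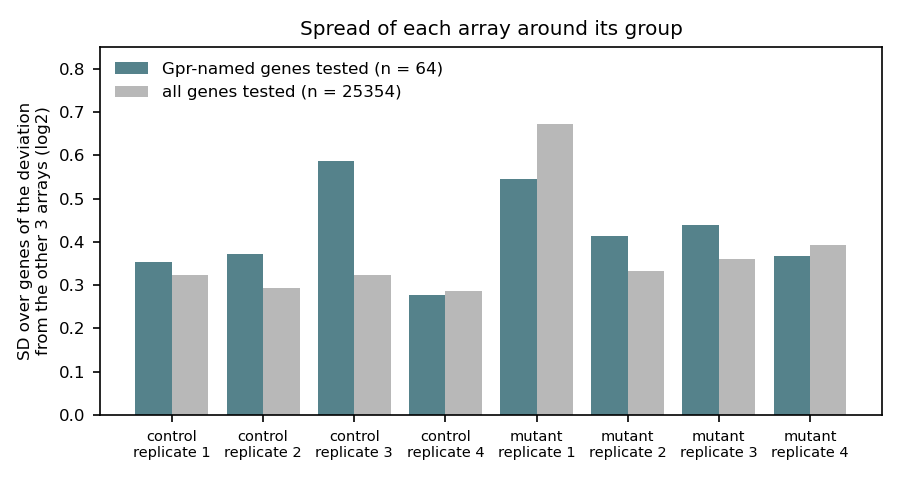
SD over genes (y axis, log2) of each array's deviation from the mean of the other 3 arrays of its group, for the 64 tested Gpr-named genes and for all 25354 tested genes. For Gpr-named genes control replicate 3 (0.59) and mutant replicate 1 (0.55) are highest; for all genes mutant replicate 1 (0.67) stands alone.

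Of the 92 genes, 13 had several probes, and for 5 of them at least 2 probes were well above background on 4 or more arrays. Gpr125, an adhesion receptor, differed by -0.009 at the brighter probe and by 0.22 at the dimmer one. Gpr4 differed by 0.13 and by -0.089. For Gpr35, Gpr77 and Gpr137b the probes shared their sign, with 0.18 and 0.12, 0.0099 and 0.053, and 0.11, 0.20 and 0.044. The array names 3 probes Gpr31c. The one used lies at chr17:13537452-13537511, and another with the same name lies at chr17:7520008-7520066, so they do not mark a single transcript.

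Several of the genes are neighbours on a chromosome. Gpr56 (from 97537978) and Gpr97 (from 97568989) lie on chromosome 8, both were well above background on 8 arrays, and they differed by 0.19 and 0.044. On chromosome 17, Gpr115 (from 42794108), Gpr111 (from 42846030), Gpr110 (from 43451421) and Gpr116 (from 43596447) also belong to the adhesion family. Gpr115 and Gpr111 were well above background on 0 arrays, while Gpr110 and Gpr116 were so on 8. Gpr110 differed by 0.21 (SE 0.19), the other way from Gpr116.

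Genes that act downstream of such receptors were read from the same fit. Of 56 genes for G protein alpha subunits, receptor kinases and arrestins, cAMP effectors and RGS proteins, 51 were tested, and 0 passed, with a median difference of 0.071. At an unadjusted limma p under 0.05 there were 2 of the 51, where 5.33% of all genes were below that value, and groups did not overlap for 3 of the 51, where they did not overlap for 4.67% of all genes. Both counts are near those shares. The 2 genes under that p were Gnai3, an inhibitory alpha subunit (-0.42, SE 0.15), and Rgs11 (-0.34, SE 0.13), and in both the groups did not overlap. They did not overlap either for the arrestin gene Arrb1, which was higher in mutants (0.24, SE 0.12). Each of these 3 had a limma adjusted p of 0.821.

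Of the pair left out by name, Gpr119, a receptor of endocrine cells for lipid amides, averaged -5.14 in controls (SD 0.39, n = 4) and -6.49 in mutants (SD 1.59, n = 4), with 3 control arrays and 1 mutant array well above background and a difference of -1.35 (SE 0.69, limma adjusted p = 0.821). Gpr142 was well above background on 0 arrays.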

How the data were processed

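Total RNA (100 ng) from small intestine was labelled in one colour, per the labels' protocols. The arrays (design 028005, mm9) were read with Feature Extraction 10.10.1.1, per the file headers, and the authors deposited linear intensity values, detrended and background-corrected within each array but not between arrays. All 8 arrays lay on 1 slide read in 1 scan. A second deposited table holds intensity values on a linear scale, by steps not given in the sources used here. Its 8 columns share their quartiles and maximum (median 123.3 in each), and each follows the median spot intensity by rank. It was used as an alternative.

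Outlier spots (117 to 157 per array) and control spots were left out and 55681 probes averaged over spots. Values were centred on each array's 75th percentile. A probe was called on an array when 50% of its spots were well above background. Groups were compared with limma 3.58.1 (R 4.3.3, two-sided, no covariates). The fit was tried on simulated data whose planted changes were larger than the difference of any tested Gpr-named gene. That trial therefore does not cover changes of their size. Nothing says whether replicates share a litter, so p-values measure the spread between these samples. With arrays, 4 per group limit the precision.

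Members, role groups and marker lists were chosen with earlier results of these data known. The rule named genes that passed or whose groups did not overlap, the 10 with the largest absolute difference, genes well above background in one group only, genes with an array far from its group, and examples from the role groups. Of the 92 genes, 7 are not reported here by name or value, though they stay in the fit and the counts. Gpr75 and the neighbouring genes were singled out after their values were seen. A gene's probe was chosen before the filter on dim probes. Alternatives were normexp (offset 50), quantile and median scaling, the deposited table, no filter and a filter on all 8 arrays, the mean over probes, array weights, slide row and replicate number as blocks, and each array left out.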

Additional observations from a re-analysis of the deposited data

Results flagged for a closer look

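In 128 groups of 4 arrays (64 genes, 2 groups each), 14 had a highest or lowest array set off from the rest by more than the 95% limit of Dixon's gap test. Chance at 1 in 20 would give 6.4. Control replicate 3 was that array in 5 of the 14 and mutant replicate 1 in 5, control replicate 1 in 2, and control replicate 4 and mutant replicate 4 in 1 each. The values of 13 of the 14 are given.

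Control replicate 3 was low for Gpr85 (-4.22, others -3.16 to -2.99), Gpr162 (-1.90, others -1.46 to -1.38), Gpr126 (-2.78, others -2.35 to -2.30) and Gpr124 (1.54, others 1.75 to 1.79), and high for Gpr108 (1.13, others 1.02 to 1.03). Mutant replicate 1 was low for Gpr65 (-1.97, others -1.37 to -1.28) and high for Gpr98 (-3.49, others -4.27 to -4.19), Gpr124 (2.07, others 1.65 to 1.70) and Gpr157 (3.90, others 3.17 to 3.29). Control replicate 1 was low for Gpr82 (-6.06, others -5.33 to -5.28) and Gpr132 (-3.22, others -2.68 to -2.60), control replicate 4 for Gpr27 (-3.05, others -2.76 to -2.71) and mutant replicate 4 for Gpr126 (-2.57, others -2.18 to -2.12).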

How the results depend on the processing

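In all 18 alternatives 0 Gpr-named genes and 0 of the G protein signalling genes passed. The lowest limma adjusted p was 0.215 for a Gpr-named gene (Gpr120), and 0 to 7 of these genes had an unadjusted limma p under 0.05. Over all genes that count ran from 999 to 2456 of 25354, and array weights gave both the 7 and the 2456. The median difference of the Gpr-named genes ran from -0.027 to 0.066. The count of Gpr-named genes whose groups did not overlap rose from 0 to 2 with the deposited values (Gpr17 and Gpr135), where 5.14% of all genes did not overlap, and to between 1 and 6 when an array was left out, where 6.80% to 10.5% of all genes did not overlap. It was 6 without control replicate 1 and 5 without mutant replicate 1. Over all genes, the count passing (15) was 27 under normexp, 41 with array weights (weight 0.119 for mutant replicate 1) and 7 with the replicate number as a block, and 10 to 22 when an array was left out. Same-numbered arrays correlated by -0.093 to 0.088 in their deviations and share only a number, and with that replicate block 0 Gpr-named genes passed. The 9 genes reported with large differences or an unadjusted limma p under 0.05 kept their sign in every alternative in which they were tested, but 7 of them shrank by more than 1.5-fold under normexp, to -0.12 (Gpr82), 0.20 (Gpr1), 0.15 (Gpr64), -0.25 (Gpr135), -0.21 (Gpr50), 0.24 (Gpr176) and -0.18 (Gpr120). With the deposited values these were -0.17, 0.20, 0.15, -0.36, -0.19, 0.29 and -0.15; the cause was not tested. Of the genes that shrank, Gpr135, Gpr50, Gpr176 and Gpr120 were well above background on all 8 arrays, but all 7 were dim. Their control means ran from -6.15 (Gpr1) to -3.02 (Gpr120), while Gpr116 and Gpr182, which shrank less, averaged -0.092 and -0.88 in controls. A separate limit holds for 7 of the 64 genes, whose probes were well above background on only 4 to 7 arrays.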
